A study of Mus musculus with 15 samples.

Results

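The genes described here are the G protein subunits, the regulators of G protein signalling (Rgs), the adenylyl cyclases and the receptors for amines, phospholipids, nucleotides and thyrotropin that were listed in the deposited tables of mouse uterine epithelium. Members were chosen by symbol alone: every gene beginning with Gna, Gnb, Gng, Rgs, Adcy, Htr, Adra, Adrb, Lpar, S1pr, P2rx, P2ry or Chrm followed by its subtype, plus Tshr, if it was listed in the Ctrl or E-OEX tables, with Rgs5 and Lpar3 left out. This gave 59 genes of the 8384 listed in those tables. The same symbols matched 109 genes over the tables of all 15 libraries. Of the 59 members, 49 were listed in the Ctrl tables, 43 in the E-OEX tables, 33 in both and 58 in the U-OEx tables.

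RNA sequencing was performed on epithelium of the uterus at day 4, with 3 libraries in each of 5 groups. Ctrl-LE and Ctrl-GE were luminal and glandular epithelium of wild-type mice. E-OEX-LE and E-OEX-GE were luminal and glandular epithelium of mice labelled as overexpressing Notch1, the gene of a receptor that acts in the nucleus after cleavage. U-OEx-LE was luminal epithelium of mice with the same genotype label. The labels give no strain, animal age, promoter or Cre driver and no meaning for E-OEX and U-OEx, which are used as names. They do not say whether the 3 libraries of a group came from separate animals, so p-values measure the spread between these libraries, which may be technical.

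Receptors of this class span the membrane and, when bound by a hormone or transmitter, exchange the nucleotide on a G protein alpha subunit, which then separates from its beta and gamma partners. Gs subunits stimulate adenylyl cyclases to make cyclic AMP, Gi and Go subunits inhibit them, and Gq subunits release calcium through phospholipase C beta. Rgs proteins shorten the signal by speeding GTP hydrolysis on the alpha subunit. In the uterus, receptors for catecholamines, acetylcholine, lysophosphatidic acid (LPA) and nucleotides are known for roles in contraction, in gland secretion and in the receptivity of the luminal surface to an embryo.

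Of the 3 members whose difference between glandular and luminal epithelium changed with genotype (Tshr, Htr1b and Gng12, below), 2 have a promoter in the RefSeq promoter table used here (GRCm38.p6), as do 42 of the 59 members. The 250 bases upstream of the RefSeq start of these 2 genes are shown 5′ to 3′ on the strand of the gene, because both were far higher in glandular than in luminal epithelium in Ctrl. Htr1b lies on the minus strand, with its window at chr9:81633833-81634082, and Gng12 on the plus strand, with its window at chr6:66896147-66896396.
Htr1b: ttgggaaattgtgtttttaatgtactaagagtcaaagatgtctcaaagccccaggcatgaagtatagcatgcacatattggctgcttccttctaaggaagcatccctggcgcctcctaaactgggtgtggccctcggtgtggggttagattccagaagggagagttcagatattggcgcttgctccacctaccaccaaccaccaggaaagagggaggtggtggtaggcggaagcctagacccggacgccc
Gng12: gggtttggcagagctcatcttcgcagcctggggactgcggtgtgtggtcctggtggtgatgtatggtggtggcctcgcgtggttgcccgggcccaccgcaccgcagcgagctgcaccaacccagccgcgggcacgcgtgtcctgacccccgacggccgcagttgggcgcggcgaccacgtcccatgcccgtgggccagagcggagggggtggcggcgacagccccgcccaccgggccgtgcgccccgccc
The Gng12 window held 74.4% G or C and the Htr1b window 52.4%. Searched on both strands, neither window held TGACGTCA, the cyclic AMP response element, GTGGGAA, a motif of CSL, the DNA-binding partner of Notch, or TGTTTAC, a forkhead motif. No letters are capitalised because none of these motifs was found in them. Among 32851 RefSeq promoters of the same length, TGACGTCA was present in 1.55%, GTGGGAA in 5.42% and TGTTTAC in 3.17%. Of the 42 members with a promoter, S1pr2 held TGACGTCA, Adra2a and Lpar2 held GTGGGAA, and P2ry14 held TGTTTAC. None of the 3 motifs overlaps another in sequence, and a match is a description of the letters only.

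The Ctrl libraries held between 3818041 and 4797424 reads in listed genes. The E-OEX libraries held between 1980800 and 3494859, and the U-OEx libraries, which list the most genes, between 13541644 and 14981505. The Ctrl tables list 6414 genes, every one with an absolute log2 ratio of at least 1 between the means of the 2 epithelia. The E-OEX tables list 4903 genes with the same limit (0.998), while 27946 genes are listed for U-OEx. For the members, the GE to LE difference within a genotype is therefore a condition of being listed and is described without a test. Notch1 was listed in the U-OEx tables alone, at 2913, 3524 and 2789, so its overexpression could not be read against Ctrl. Values of single libraries are given as the authors deposited them, in scaled reads and in the order of replicates 1, 2 and 3. Fold changes between genotypes come from the recovered reads on 1 scale common to the 15 libraries, and need not equal the ratio of deposited means. On the deposited scale the median of all genes between E-OEX-GE and Ctrl-GE was 0.50 (log2), against 0.11 on the common scale.

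Marker genes show what else the libraries held. The summed stromal markers ranged from 28951 to 94691 in Ctrl-GE (6 listed) and from 74971 to 87099 in E-OEX-GE (8 listed). They were 185 to 5561 over the 9 luminal libraries, so both glandular groups carried stromal RNA. Over the 6 stromal markers listed everywhere, on the common scale, the sums were 24757 to 71514 in Ctrl-GE and 42464 to 50932 in E-OEX-GE. Endothelial markers summed to 2647 to 4791 in Ctrl-GE (7 listed) and 3472 to 9801 in E-OEX-GE (6 listed). Pericyte markers summed to 2732 to 4025 in Ctrl-GE and 2660 to 7847 in E-OEX-GE. Smooth muscle markers summed to 2734 to 4878 in Ctrl-GE (5 listed) and 14173 to 17508 in E-OEX-GE (6 listed), and 4 of the 5 tested rose: Acta2, Actg2, Cnn1 and Myh11. Glandular markers summed to 30010 to 53008 in Ctrl-GE (7 listed) and 4392 to 5412 in E-OEX-GE (5 listed), and 4 of the 5 tested fell: Cxcl15, Lif, Spink1 and Ttr. In U-OEx-LE the leukocyte markers summed to 2533 to 7416 with 8 listed, against 851 to 1232 with 4 listed in Ctrl-LE, and Adgre1, Cd52 and Laptm5 rose of the 4 tested. The U-OEx-LE sum includes Ptprc (mean 1572) and Csf1r (mean 772), not listed in Ctrl, so the sums cover different genes. Cd68, the 1 marker listed everywhere, was at 398 to 591 in U-OEx-LE and 254 to 427 in Ctrl-LE on the common scale. Glandular markers summed to 1011 to 1388 in U-OEx-LE and 45.6 to 94.2 in Ctrl-LE, and Cxcl15, Foxa2 and Lif rose of the 5 tested while Spink1 fell; Spink1, Prss29 and Ttr had no read in U-OEx-LE. In the same comparison the general epithelial Cdh1, Cldn3 and Cldn7 fell of 5 tested, and the luminal Calb1 and Wnt7a of 3. These marker counts stand beside the shares of all genes called by the limma test described below. Between U-OEx-LE and Ctrl-LE 54.5% were called, 27.4% higher and 27.1% lower. Between E-OEX-GE and Ctrl-GE 23.8% were called, 11.0% higher and 12.8% lower. Single libraries stood above the others of their group in several sums. E-OEX-LE replicate 1 had glandular markers at 1010, against 200 and 111 in replicates 2 and 3. Stromal markers were at 5561 in Ctrl-LE replicate 2, against 185 and 1680, at 1839 in U-OEx-LE replicate 3, against 416 and 349, and at 94691 in Ctrl-GE replicate 2, against 46206 and 28951. In E-OEX-GE, replicate 3 had endothelial markers at 9801, against 3472 and 4430, and replicate 1 luminal markers at 1646, against 808 and 631. The part of other cells in any result below was not tested. In bulk RNA fewer cells of a type and less RNA per cell cannot be told apart.

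**Figure D1:**
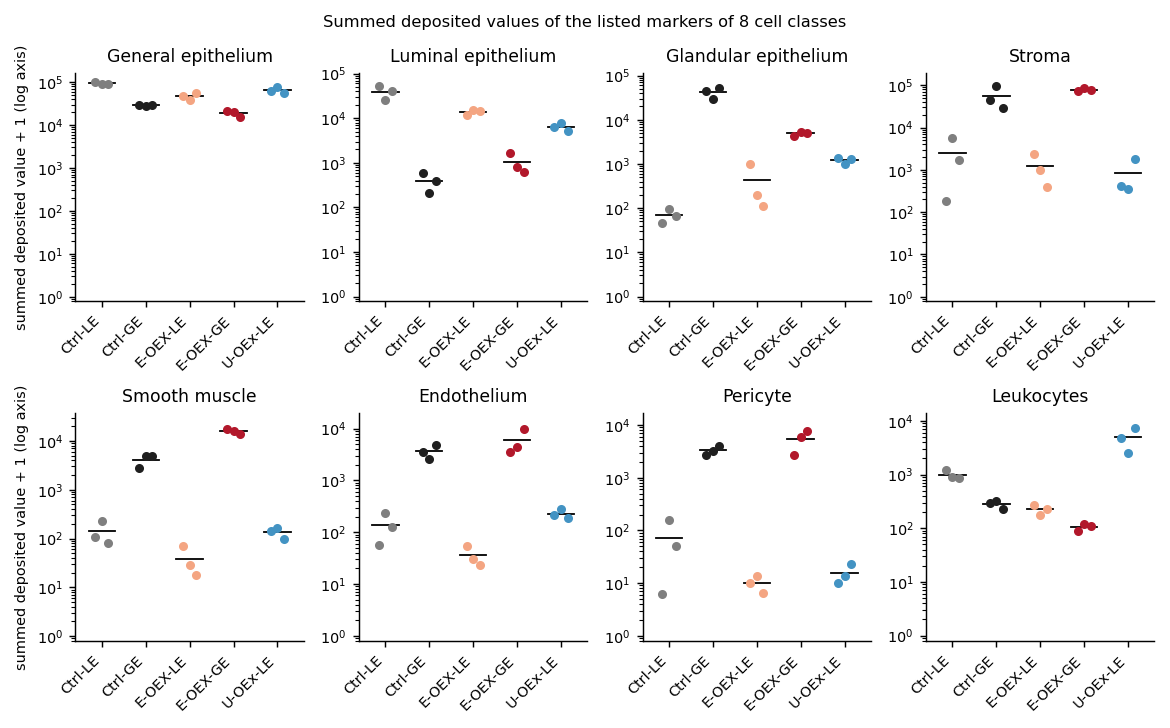
Summed deposited value plus 1 (log axis) of the listed markers of 8 cell classes in each library of the 5 groups; points are libraries and bars are means. Stromal sums were 28951 to 94691 in Ctrl-GE and 74971 to 87099 in E-OEX-GE, while glandular sums were 30010 to 53008 and 4392 to 5412; the number of markers listed differs between table sets.

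The members were mostly higher in glandular than in luminal epithelium. In Ctrl 40 of 49 members were higher in GE, where 57.0% of all 6414 listed genes were. In E-OEX 40 of 43 were higher in GE, against 63.9% of all 4903. Among the 33 members listed in both sets, 30 were higher in GE in both, Gnal and Adra2c were higher in LE in both, and Gnb4 was higher in LE in Ctrl and in GE in E-OEX. The members nearest the listing limit were P2rx6 (log2 ratio of means, GE to LE, of -1.03) and Rgs19 (1.08) in Ctrl, and Gnal (-1.05) and Gnb4 (1.10) in E-OEX. As a difference of mean log2 of deposited value plus 1, the largest in Ctrl were Htr1b at 8.75 and Tshr at 8.50.

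**Figure D2:**
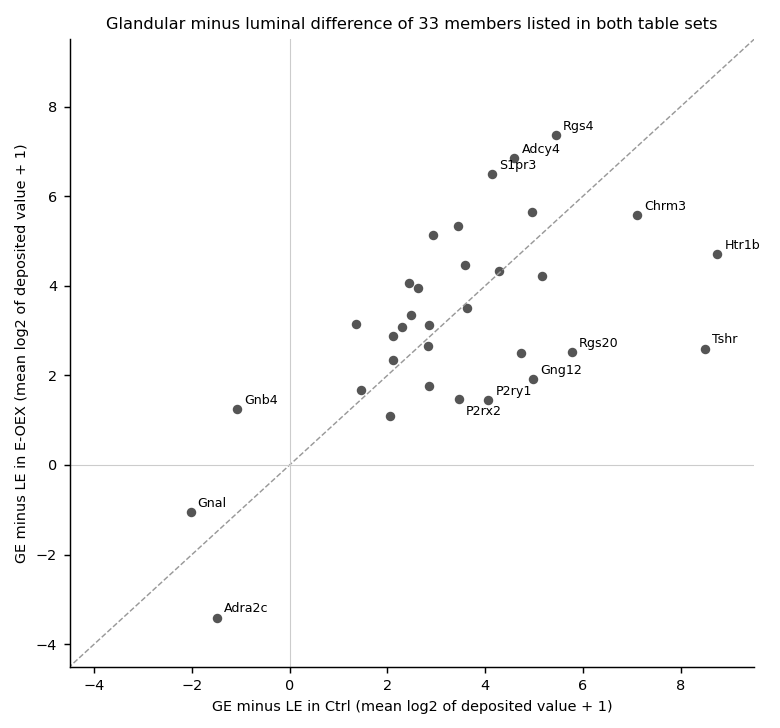
Difference between glandular and luminal epithelium (mean log2 of deposited value plus 1) in Ctrl on the x axis and in E-OEX on the y axis, for the 33 members listed in both; the dashed line marks equal differences. Htr1b moved from 8.75 to 4.71, Tshr from 8.50 to 2.60 and Gng12 from 4.98 to 1.91, below the line.

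Across genotypes, 10 of the 33 members tested differed between E-OEX-GE and Ctrl-GE (limma, Benjamini-Hochberg adjusted over all genes tested, threshold 0.05): 6 fell and 4 rose, where 23.8% of all 2837 genes tested were called. The members that fell were Tshr, Rgs20, Chrm3, Htr1b, Adra2c and Gng12, and P2rx2, S1pr3 and Adrb1 were among those that rose. The median log2 fold change of the members was 0.23, against 0.11 over all genes. On the deposited scale 13 members were called, 8 of them higher, and in 1 fit over all 5 groups 2 were, Tshr and Rgs20. Without E-OEX-GE replicate 1 there were 13 calls, without E-OEX-GE replicate 2 there were 6, and without E-OEX-GE replicate 3 or any one of the Ctrl-GE libraries there were 5.

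Between E-OEX-LE and Ctrl-LE, 4 of the 27 members tested were called, where 8.71% of 2653 genes were (4.15% higher): P2rx2, P2ry1, Gng12 and Adra2a rose. The members' median was 0.36, against -0.06 over all genes. No member was called by limma without E-OEX-LE replicate 1 or 2 or without Ctrl-LE replicate 3, and 3 were with any of the other 3 libraries left out. Without E-OEX-LE replicate 1, 60 genes were called in all. By edgeR 2 members were called and by DESeq2 7, and 7 had an unadjusted limma p under 0.05. Below a mean of 1, and so not tested, were Adra1d, Htr2a, Lpar4, Rgs17, Rgs4 and Rgs7bp.

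Between U-OEx-LE and Ctrl-LE, 26 of 42 members tested were called, 15 higher and 11 lower, where 54.5% of 6028 genes were called, 27.4% higher and 27.1% lower. The members' median was 0.61, against 0.07 over all genes. With any 1 library left out there were 21 to 25 calls. There were 25 without Ctrl-LE replicate 1 or 2 and 21 without Ctrl-LE replicate 3. Without U-OEx-LE replicate 1, 2 or 3 there were 22, 24 and 21. Ctrl-LE replicate 2 had the highest stromal sum of its group and replicate 1 the lowest. U-OEx-LE replicate 3 had the highest leukocyte and stromal sums of its group. Both luminal comparisons use the Ctrl-LE libraries. Directly between U-OEx-LE and E-OEX-LE, 7 of 36 members were called, 2 higher and 5 lower in U-OEx-LE, where 12.5% of 4345 genes were called, 6.19% higher and 6.31% lower. That count was 13 without E-OEX-LE replicate 1, 4 without U-OEx-LE replicate 2, 2 without E-OEX-LE replicate 3, 1 without E-OEX-LE replicate 2 or U-OEx-LE replicate 1, and 0 without U-OEx-LE replicate 3.

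For the genotype-by-epithelium interaction, which asks whether the GE to LE difference differed between E-OEX and Ctrl, 3 of 33 members were called, all negative, where 9.31% of 2933 genes were called, 4.09% positive and 5.22% negative. They were Tshr, Htr1b and Gng12.

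**Figure D3:**
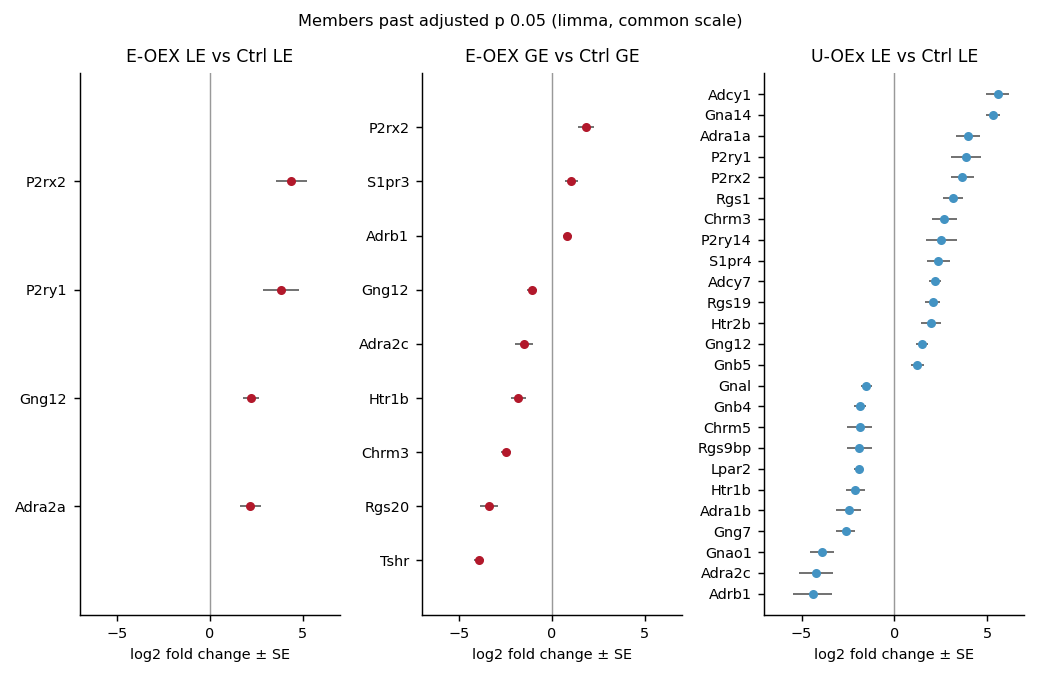
Log2 fold change on the common scale with its standard error (x axis) for members past an adjusted p of 0.05 by limma in E-OEX-LE against Ctrl-LE, E-OEX-GE against Ctrl-GE and U-OEx-LE against Ctrl-LE. In E-OEX-GE 6 members lie left of 0 and 3 right of it, and in U-OEx-LE 11 and 14, with 1 called member not plotted in each; for members with 3 reads or fewer in one group the fitted value depends on the added 1.

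Tshr, the receptor for thyroid-stimulating hormone, which couples mainly to Gs, is a protein-coding gene at chr12:91384563-91549808 on the plus strand (GRCm38, GENCODE M21). Its values were 2587, 2628 and 2897 in Ctrl-GE and 166, 301 and 244 in E-OEX-GE. In luminal epithelium it was at 14.5, 2.05 and 7.82 in Ctrl, at 14.6, 106 and 32.4 in E-OEX and at 0.919, 3.55 and 0 in U-OEx. The Ctrl-GE libraries thus stood above every library of the other groups. Tshr fell by 3.94 on the log2 scale in E-OEX-GE (SE 0.25, limma adjusted p = 2.51e-05, 15.3-fold lower) and remained called with any library left out and under every other scaling, filter and tool tried. The mean was 333-fold higher in GE than in LE in Ctrl and 4.64-fold in E-OEX, and the interaction was -6.22 (SE 0.98, limma adjusted p = 0.0020). In luminal epithelium E-OEX was 5.85-fold above Ctrl without passing the test (limma adjusted p = 0.184). U-OEx-LE was lower than E-OEX-LE by 31.6-fold (limma adjusted p = 0.025), a call held without E-OEX-LE replicate 1 (0.0126) or U-OEx-LE replicate 2 (0.0365) and lost with any of the other 4 libraries left out, at adjusted p from 0.0625 to 0.112, at a pseudocount of 0.1 (0.0531) and with no filter on low values (0.0660). The glandular marker genes that fell in E-OEX-GE fell in the same libraries, and the part of gland cell number in the Tshr result was not tested.

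Htr1b encodes a serotonin receptor that couples to Gi and Go. It lies at chr9:81628291-81633828 on the minus strand, and 18% of its exon length overlaps D430036J16Rik on the other strand; whether the counting used strand is not given in the sources used here, so reads of the 2 genes cannot be told apart there. Htr1b had 1337, 1218 and 1972 in Ctrl-GE and 266, 938 and 662 in E-OEX-GE, with no overlap. In luminal epithelium it was at 3.11, 2.05 and 2.24 in Ctrl, 19.2, 71.7 and 5.40 in E-OEX, and 0 in all 3 U-OEx libraries. Htr1b fell by 1.82 in E-OEX-GE (log2, SE 0.41, limma adjusted p = 0.0111), a call kept with any library left out and lost in 1 fit over all 5 groups (0.150). Its GE mean was 612-fold its LE mean in Ctrl and 19.4-fold in E-OEX, and the interaction was -4.40 (SE 1.12, limma adjusted p = 0.0287). That interaction was not called without Ctrl-LE replicate 3 (0.066), without any one of the Ctrl-GE libraries (0.0536 to 0.084), or without E-OEX-GE replicate 1 (0.0699) or 3 (0.0635). E-OEX-LE was 12.4-fold above Ctrl-LE but missed the threshold (limma adjusted p = 0.165). With 0 reads in U-OEx-LE, Htr1b was at least 2.74-fold lower than in Ctrl-LE (limma adjusted p = 0.00915; 0.118 by DESeq2, where it was not called) and at least 33.9-fold lower than in E-OEX-LE (0.0208, lost without E-OEX-LE replicate 2 at 0.0523 or any U-OEx-LE library at 0.0555 to 0.0964, and with no filter on low values at 0.0555). These bounds set the empty group at 3 reads over its 3 libraries.

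The other serotonin receptor members, Htr2a and Htr2b, couple to Gq and were much lower per length than Htr1b in Ctrl-GE. The mean per kilobase of exon there was 319 for Htr1b, 25.0 for Htr2b and 3.47 for Htr2a. In luminal epithelium Htr2b stood above Htr1b in Ctrl (1.48 against 0.522) and in U-OEx (7.13 against 0). Htr2b had 60.3, 17.1 and 82.2 in Ctrl-GE and 4.14, 3.07 and 2.24 in Ctrl-LE, against 11.0, 12.4 and 22.1 in U-OEx-LE. It rose 4.63-fold in U-OEx-LE (limma adjusted p = 0.0159), short of the threshold without Ctrl-LE replicate 3 (0.0503) or U-OEx-LE replicate 3 (0.0568), and 11.8% of its exon length overlaps Psmd1 on the other strand. Htr2a had no read in Ctrl-LE and 26.3, 20.9 and 11.2 in Ctrl-GE.

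**Figure D4:**
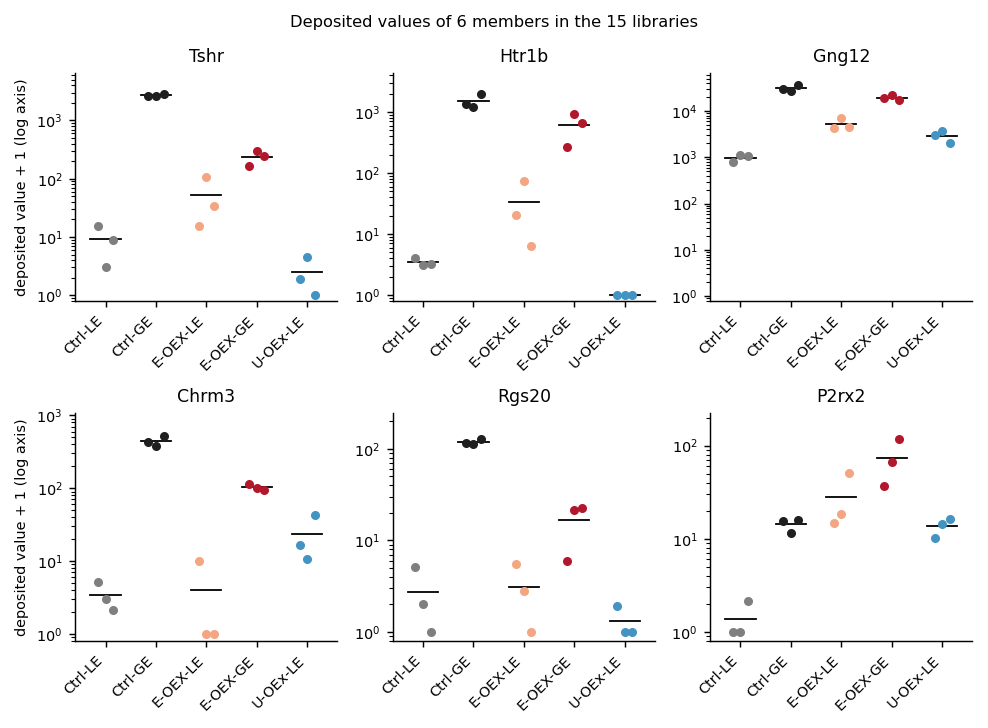
Deposited value plus 1 (log axis) of Tshr, Htr1b, Gng12, Chrm3, Rgs20 and P2rx2 in each library of the 5 groups; points are libraries and bars are means. Tshr stands at 2587 to 2897 in Ctrl-GE and 166 to 301 in E-OEX-GE, and P2rx2 at 10.4 to 14.7 and 36.1 to 116.

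Chrm3, the Gq-coupled muscarinic acetylcholine receptor known for driving secretion in exocrine glands, lies at chr13:9875486-10360847 on the minus strand. It had 435, 381 and 523 in Ctrl-GE and 112, 101 and 93.7 in E-OEX-GE, so the lowest Ctrl-GE library was above the highest E-OEX-GE library. Chrm3 fell by 2.49 in E-OEX-GE (log2, SE 0.28, limma adjusted p = 0.000243, 5.80-fold lower), with any library left out, and was not called in 1 fit over all 5 groups (0.0688). In luminal epithelium it was near the bottom of the range, at 4.14, 2.05 and 1.12 in Ctrl and 9.13, 0 and 0 in E-OEX. The U-OEx-LE libraries had 15.6, 9.78 and 41.3, and Chrm3 rose 8.63-fold there (limma adjusted p = 0.0115). Between U-OEx-LE and E-OEX-LE it missed the threshold (limma adjusted p = 0.0681). Chrm5, also coupled to Gq, ran the other way: it had 5.18, 3.07 and 2.24 in Ctrl-LE, no read in Ctrl-GE, and 0, 1.78 and 0 in U-OEx-LE. On 10 and 2 reads its ratio was 5.88-fold lower in U-OEx-LE (95% counting interval 1.25 to 55.2, limma adjusted p = 0.0479). The Chrm5 call held with U-OEx-LE replicate 2 left out (0.0171) and was lost with any of the other 5 libraries left out (0.0762 to 0.147), by edgeR (0.138) and DESeq2 (0.194), and by a small margin under both other scalings (0.0524 and 0.0527), at a pseudocount of 0.1 (0.0541) and with a replicate block (0.0684).

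The adrenergic receptors bind adrenaline and noradrenaline, and of those described here Adra2a and Adra2c couple to Gi and Adrb1 to Gs. Among the adrenergic members, by mean per kilobase of exon, Adra2a led in Ctrl-GE (88.0) and E-OEX-GE (216). Adra2c led in Ctrl-LE (37.6) and E-OEX-LE (71.8). The receptor that led was thus the same in Ctrl and E-OEX within an epithelium. The Ctrl-LE mean of Adra2c rests largely on replicate 1 (293, against 19.5 and 76.0). Adra2c did not lead in U-OEx-LE, where it was at 1.14 and Adra2a at 8.75.

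Adra2a (chr19:54044151-54048982, plus strand) had 116, 31.7 and 50.3 in Ctrl-LE, 233, 203 and 518 in E-OEX-LE and 39.5, 60.4 and 26.9 in U-OEx-LE. All 3 E-OEX-LE libraries lay above all Ctrl-LE and U-OEx-LE libraries. Adra2a rose 4.21-fold in E-OEX-LE against Ctrl-LE (log2 2.18, SE 0.56, limma adjusted p = 0.0424), a call kept when Ctrl-LE replicate 1 was left out (0.034) and lost with any of the other 5 left out (0.089 to 0.186), by edgeR (0.0594), with no filter on low values (0.0741), with scaling over the genes of this comparison (0.0643) and with a replicate block (0.0768). It was 6.69-fold lower in U-OEx-LE than in E-OEX-LE (limma adjusted p = 0.0142), which missed the threshold without U-OEx-LE replicate 1 (0.0838) or 3 (0.0735). In glandular epithelium it had 334, 499 and 443 in Ctrl and 605, 1296 and 1224 in E-OEX (limma adjusted p = 0.0685).

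Adra2c (chr5:35278319-35281763, plus strand) was the adrenergic member with higher luminal than glandular means in Ctrl and E-OEX, but its luminal libraries varied widely. It had 293, 19.5 and 76.0 in Ctrl-LE, 21.0, 179 and 542 in E-OEX-LE, and 2.76, 7.11 and 1.92 in U-OEx-LE. U-OEx-LE was below every other luminal library, 33.4-fold lower than Ctrl-LE (limma adjusted p = 0.00551) and 53.9-fold lower than E-OEX-LE (0.024). The first of these held with any library left out. The second held without E-OEX-LE replicate 1 (0.00256) or U-OEx-LE replicate 2 (0.0473) and was lost with any of the other 4 left out (0.0703 to 0.112) and with no filter on low values (0.0696). In glandular epithelium Adra2c fell from 18.5, 23.7 and 42.4 in Ctrl to 16, 9.20 and 9.37 in E-OEX (3.27-fold lower, limma adjusted p = 0.0411), a call held without E-OEX-GE replicate 1 (0.0203) and lost with any of the other 5 left out (0.0693 to 0.164), on the deposited scale (0.0870) and with no filter on low values (0.0572).

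Adrb1 (chr19:56722199-56733113, plus strand) had 53.9, 47.1 and 154 in Ctrl-LE, 102, 121 and 266 in E-OEX-LE and 0, 12.4 and 3.84 in U-OEx-LE. It fell in U-OEx-LE, 15.4-fold against Ctrl-LE (log2 -4.41, SE 1.06, limma adjusted p = 0.00914) with any library left out. Against E-OEX-LE it was 26.5-fold lower (0.0167), and this call was lost without E-OEX-LE replicate 2 (0.0505), E-OEX-LE replicate 3 (0.0555) or U-OEx-LE replicate 3 (0.0736), at a pseudocount of 0.1 (0.0530) and with no filter on low values (0.0515). In glandular epithelium Adrb1 had 174, 205 and 234 in Ctrl and 425, 576 and 433 in E-OEX, and rose 1.74-fold (limma adjusted p = 0.0445), a call held without E-OEX-GE replicate 1 (0.0398) and lost with any of the other 5 left out (0.0577 to 0.174), with scaling over the genes of this comparison (0.0661) and with a replicate block (0.0577).

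The Gq-coupled Adra1a, Adra1b and Adra1d were low, with the highest group mean that of Adra1a in E-OEX-GE (35.5 ± 19.3, SD, n = 3). Adra1a had 1.04, 0 and 0 in Ctrl-LE and 23.9, 9.78 and 13.4 in U-OEx-LE. On 1 and 51 reads its ratio was 43.4-fold higher (95% counting interval 7.45 to 1747, limma adjusted p = 0.00121). Adra1b, on 23 reads in Ctrl-LE and 3 in U-OEx-LE, was 9.01-fold lower (interval 2.72 to 46.9, limma adjusted p = 0.016), not called without U-OEx-LE replicate 2 (0.0505). Adra1d reached 28.1 and Adrb3 5.62, both in E-OEX-GE replicate 3, and 24.9% of the Adrb3 exon length overlaps Gm45470 on the other strand.

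**Figure D5:**
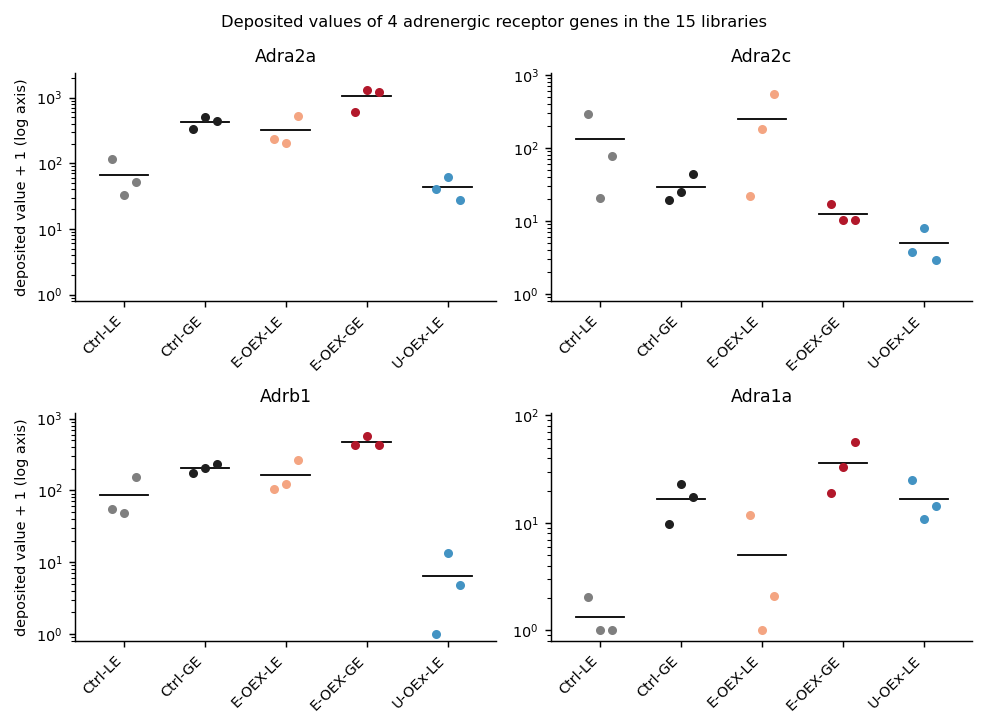
Deposited value plus 1 (log axis) of Adra2a, Adra2c, Adrb1 and Adra1a in each library of the 5 groups; points are libraries and bars are means. In U-OEx-LE Adrb1 stands at 0 to 12.4 and Adra2c at 1.92 to 7.11, while Adra1a stands at 9.78 to 23.9.

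Lpar2, a receptor for LPA, was one of 9 members higher in LE than in GE in Ctrl. It lies at chr8:69822429-69831102 on the plus strand and had 951, 1109 and 977 in Ctrl-LE, 257, 267 and 249 in Ctrl-GE and 262, 299 and 263 in U-OEx-LE. The U-OEx-LE libraries did not overlap Ctrl-LE and, on the deposited scale, lay within or near the Ctrl-GE range. The common scale used for the tests divides Ctrl-GE reads by 1.19 to 1.40 and U-OEx-LE reads by 0.814 to 0.834. On it every U-OEx-LE library was above every Ctrl-GE library. Lpar2 fell 3.77-fold in U-OEx-LE (log2 -1.92, SE 0.25, limma adjusted p = 0.000492), with any library left out. Lpar1 had 78.7, 85.0 and 86.1 in Ctrl-LE, 461, 514 and 417 in Ctrl-GE and 74.4, 74.6 and 49.0 in U-OEx-LE. Neither Lpar1 nor Lpar2 was listed in the E-OEX tables. Lpar4 had 1 read or none in every luminal library and 8.65 to 19.5 in Ctrl-GE and 14.9 to 35.6 in E-OEX-GE.

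The 4 sphingosine 1-phosphate (S1P) receptors were higher in GE wherever listed. S1pr3 had 35.0, 52.1 and 35.5 in Ctrl-GE and 72.1, 125 and 150 in E-OEX-GE, against 7.11 at most in luminal libraries. It rose 2.16-fold in E-OEX-GE (limma adjusted p = 0.0494), held without E-OEX-GE replicate 1 (0.0135) and lost with any of the other 5 left out (0.0655 to 0.164), with scaling over the genes of this comparison (0.0652) and with no filter on low values (0.0612). On the deposited scale the endothelial marker sum was 3472 to 9801 in the same libraries (6 listed), against 2647 to 4791 in Ctrl-GE (7 listed). Over the 6 endothelial markers listed in every library, on the common scale, it was 2353 to 5707 against 1868 to 3824, with medians of 2739 and 2845. None of these 6 was called between E-OEX-GE and Ctrl-GE, and a link to S1pr3 was not tested. S1pr1, which is known for high expression in endothelium, had 320, 487 and 526 in E-OEX-GE and 24.6, 4.54 and 27.0 in E-OEX-LE. S1pr4, a receptor of leukocytes, had 2.07, 3.07 and 3.35 in Ctrl-LE and 17.5, 9.78 and 33.6 in U-OEx-LE, and rose 6.91-fold (limma adjusted p = 0.0128). Its order over the U-OEx-LE libraries was that of Ptprc, the pan-leukocyte gene (1570, 441 and 2705). Chrm3 (15.6, 9.78 and 41.3) had the same order, while Rgs1 (107, 142 and 198) and P2ry10 (6.43, 12.4 and 14.4) were lowest in replicate 1. A link of S1pr4 to leukocytes was not tested. S1pr2 was at 75.4 to 97.0 in U-OEx-LE and 64.8 to 93.1 in E-OEX-LE.

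P2rx2, a cation channel opened by ATP, was higher in all 3 Notch1-overexpressing groups than in the matching Ctrl group. It lies at chr5:110339812-110343212 on the minus strand. P2rx2 had 0, 0 and 1.12 in Ctrl-LE, 13.7, 17.3 and 49.7 in E-OEX-LE and 9.19, 13.3 and 15.4 in U-OEx-LE. With 1 read in Ctrl-LE, the ratio was 66.0 for E-OEX-LE (80 reads, 95% counting interval 11.5 to 2640, limma adjusted p = 0.0157) and 34.9 for U-OEx-LE (41 reads, interval 5.92 to 1411, 0.00169). The U-OEx-LE call held with any library left out, and the E-OEX-LE call was lost without Ctrl-LE replicate 3 (0.0645), E-OEX-LE replicate 1 (0.0524) or E-OEX-LE replicate 2 (0.0749). In glandular epithelium P2rx2 had 14.6, 10.4 and 14.7 in Ctrl and 36.1, 65.5 and 116 in E-OEX and rose 4.22-fold (limma adjusted p = 0.0158), lost without Ctrl-GE replicate 2 (0.0548) or E-OEX-GE replicate 3 (0.0577). P2rx1, a channel known from smooth muscle, had 7.79, 12.3 and 5.19 in Ctrl-GE and 13.0, 41.4 and 43.1 in E-OEX-GE (limma adjusted p = 0.0905). P2rx6 was higher in Ctrl-LE (208, 101 and 80.5) than in Ctrl-GE (74.0, 75.8 and 41.5) and stood at 84.5, 212 and 77.8 in U-OEx-LE, with 13.9% of its exon length overlapping Slc7a4.

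P2ry1, the Gq-coupled receptor for ADP, rose in both luminal comparisons. It had 0, 3.07 and 0 in Ctrl-LE, 11.9, 37.2 and 17.3 in E-OEX-LE and 19.3, 16 and 22.1 in U-OEx-LE, with no overlap. On 3 reads in Ctrl-LE the ratio was 19.3 for E-OEX-LE (95% counting interval 6.32 to 95.6, limma adjusted p = 0.0424) and 17.6 for U-OEx-LE (interval 5.74 to 87.6, 0.00426). The second held with any library left out. The first held without Ctrl-LE replicate 2 (0.0274) and was lost with any of the other 5 left out (0.0674 to 0.198). It was also lost by edgeR (0.0909), at a pseudocount of 0.1 (0.0682), with no filter on low values (0.0907), with a minimum mean of 10 (0.0627) and with a replicate block (0.0524), and kept by DESeq2 (0.00909). An overlap with Gm37035 on the other strand covers 23.1% of its exon length.

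P2ry14, a receptor for UDP-glucose, had 1.04, 7.17 and 1.12 in Ctrl-LE and 25.7, 7.11 and 26.9 in U-OEx-LE, and was 6.05-fold higher (limma adjusted p = 0.0362). Its groups overlapped, and the call held without Ctrl-LE replicate 2 (0.00812) or U-OEx-LE replicate 2 (0.0313) and was lost with any of the other 4 left out (0.0863 to 0.122), by edgeR (0.0554), in 1 fit over all 5 groups (0.0651) and with a replicate block (0.0645). P2ry10, known from lymphocytes, had 6.43, 12.4 and 14.4 in U-OEx-LE and 0.913, 0.908 and 0 in E-OEX-LE. On 36 and 2 reads its ratio was 18.6 (95% counting interval 4.78 to 159, limma adjusted p = 0.0231), held without E-OEX-LE replicate 1 (0.0197) and lost with any of the other 5 left out (0.0523 to 0.101) and at a pseudocount of 0.1 (0.0562). P2ry6, the receptor for UDP, was the highest P2Y member per kilobase in U-OEx-LE (302). It had 1002, 591 and 1021 there, against 443, 59.0 and 27.0 in E-OEX-LE (limma adjusted p = 0.0515, and 0.00256 without E-OEX-LE replicate 1). P2ry4 stayed at or under 7.79 in each library listed.

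Of the 5 alpha subunits listed in Ctrl, 3 were higher in GE and 2 in LE. Gna14, an alpha subunit of the Gq family, lies at chr19:16435762-16610820 on the plus strand. It had 6.22, 6.14 and 5.59 in Ctrl-LE, 169, 175 and 216 in Ctrl-GE and 334, 246 and 261 in U-OEx-LE, so every U-OEx-LE library was above every Ctrl library. Gna14 rose 45.6-fold in U-OEx-LE (log2 5.33, SE 0.37, limma adjusted p = 3.23e-05), with any library left out and under every other scaling, filter and tool tried. In E-OEX-LE it was at 138, 22.7 and 10.8, and U-OEx-LE was 5.06-fold higher (limma adjusted p = 0.049; 0.00299 without E-OEX-LE replicate 1, and 0.102 to 0.172 with any of the other 5 left out). This call was also lost by edgeR (0.131), at a pseudocount of 0.1 (0.0678), with no filter on low values (0.113) and with a minimum mean of 10 (0.0509). The highest E-OEX-LE value of Gna14 was that of replicate 1, the library with the most glandular marker RNA of its group.

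Gnao1, the Go alpha subunit, fell in U-OEx-LE from 95.3, 62.5 and 187 to 2.76, 8.89 and 10.6 (log2 -3.89, SE 0.63, limma adjusted p = 0.00147). Gnal, which stimulates adenylyl cyclase, had 299, 298 and 364 in Ctrl-LE, 205, 228 and 199 in E-OEX-LE and 98.3, 139 and 110 in U-OEx-LE. It fell 2.82-fold in U-OEx-LE (limma adjusted p = 0.00346), and 7.63% of its exon length overlaps Mppe1. Both calls held with any library left out. Among the alpha subunits listed, Gnai1, a Gi subunit, led per kilobase in Ctrl-GE (55.8) and E-OEX-GE (64.8). Gna14 stood near it, at 54.5 and 62.7. Gnai1 had 141, 226 and 158 in Ctrl-GE and 176, 212 and 222 in E-OEX-GE. Gnat1, listed in E-OEX and U-OEx, reached 44.1, Gnat2, listed in Ctrl and U-OEx, 31.1, and Gnaz, listed in E-OEX and U-OEx, 26.2.

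Gng12 was the most abundant member per kilobase in each of the 5 groups. This gamma subunit lies at chr6:66896397-67021350 on the plus strand. Its mean per kilobase of exon was 6583 in Ctrl-GE, 4098 in E-OEX-GE, 1110 in E-OEX-LE, 610 in U-OEx-LE and 209 in Ctrl-LE. Its deposited values were 30542, 26798 and 36020 in Ctrl-GE and 18866, 22085 and 17157 in E-OEX-GE. In luminal epithelium they were 802, 1117 and 1047 in Ctrl, 4233, 7016 and 4496 in E-OEX and 3002, 3645 and 2003 in U-OEx. Every library of the 2 other luminal groups was above every Ctrl-LE library, and every E-OEX-GE library below every Ctrl-GE library. Gng12 rose in E-OEX-LE (log2 2.23, SE 0.43, limma adjusted p = 0.0173) and in U-OEx-LE (1.47, SE 0.33, 0.00677), and fell in E-OEX-GE (-1.08, SE 0.25, 0.0126). The difference between U-OEx-LE and E-OEX-LE was -0.76 (SE 0.41) and did not pass (0.235). The interaction was -3.31 (SE 0.47, limma adjusted p = 0.00162) and was called with any library left out and under every other scaling, filter and tool tried, as was the U-OEx-LE rise with any library left out. The E-OEX-LE call was lost without Ctrl-LE replicate 3 (0.0986), E-OEX-LE replicate 1 (0.0604) or E-OEX-LE replicate 2 (0.0749), with log2 values between 1.91 and 2.48 over the 6 refits, and with no filter on low values (0.0535). The E-OEX-GE call was lost without Ctrl-GE replicate 1 (0.0654) or 3 (0.054), and E-OEX-GE replicate 3 left it at 0.050.

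The other gamma subunits among the members were far lower, although Gng11 shared the gland bias. Gng11 had 297, 287 and 298 in Ctrl-GE and 341, 387 and 415 in E-OEX-GE. In luminal epithelium it had 2.07, 26.6 and 5.59 in Ctrl, 21.0, 23.6 and 15.1 in E-OEX and 8.27, 5.33 and 14.4 in U-OEx. The highest luminal value was that of the luminal library with the most stromal markers (5561, 6 listed). The E-OEX-LE stromal sums were 2353, 1015 and 391 (8 listed), and a link to Gng11 was not tested. Gng2 had 68.1, 96.7 and 72.7 in Ctrl-GE and 84.1, 110 and 190 in E-OEX-GE, and 20.4% of its exon length overlaps Gm48283. Gng8, listed in E-OEX, had 26.0, 26.4 and 23.4 in GE and 1 read in all of LE. Gng7 was luminal, with 128, 120 and 156 in Ctrl-LE against 50.6, 72.0 and 41.5 in Ctrl-GE. It fell to 14.7, 45.3 and 15.4 in U-OEx-LE (5.39-fold lower, limma adjusted p = 0.00387), with any library left out.

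The 2 beta subunits moved in opposite directions in U-OEx-LE. Gnb4 had 308, 406 and 517 in Ctrl-LE, 134, 51.8 and 196 in E-OEX-LE and 114, 117 and 116 in U-OEx-LE, and fell 3.60-fold in U-OEx-LE (limma adjusted p = 0.00226). In E-OEX-LE it was 3.63-fold lower (limma adjusted p = 0.0567). In glandular epithelium it had 177, 179 and 212 in Ctrl and 190, 271 and 357 in E-OEX, and its interaction missed the threshold (2.08, SE 0.63, limma adjusted p = 0.0564). Gnb5, the beta subunit that pairs with one family of Rgs proteins, had 68.4, 37.9 and 43.6 in Ctrl-LE, 113, 117 and 115 in E-OEX-LE and 104, 143 and 109 in U-OEx-LE. It rose 2.32-fold in U-OEx-LE (limma adjusted p = 0.0176), lost without Ctrl-LE replicate 3 (0.0521) or U-OEx-LE replicate 2 (0.0632).

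All 6 adenylyl cyclases listed in Ctrl were higher in GE. Adcy1, a cyclase stimulated by calcium and calmodulin, lies at chr11:7063489-7178506 on the plus strand. It had 1.04, 4.10 and 3.35 in Ctrl-LE, 27.3, 33.2 and 16.4 in Ctrl-GE and 123, 267 and 130 in U-OEx-LE, above every Ctrl library. Adcy1 rose 60.5-fold in U-OEx-LE (log2 5.57, SE 0.62, limma adjusted p = 0.000234). Adcy7 had 77.7, 42.0 and 53.6 in Ctrl-LE and 221, 219 and 388 in U-OEx-LE, and rose 4.63-fold (limma adjusted p = 0.00116). Both calls held with any library left out, and neither gene was listed in E-OEX. Among the cyclases listed, Adcy4 led per kilobase in Ctrl-GE (48.9) and E-OEX-GE (77.5). Cyclases under the listing limit were not ranked. It had 211, 212 and 262 in Ctrl-GE, 191, 341 and 554 in E-OEX-GE, and 37.5 or less in luminal libraries. Adcy5, which calcium inhibits, had 70.1, 117 and 105 in Ctrl-GE and 307, 239 and 200 in E-OEX-GE (limma adjusted p = 0.0519). Adcy3 and Adcy2 did not pass in any comparison, and 22.1% of the Adcy3 exon length overlaps Cenpo.

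Of the 8 Rgs and Rgs-anchor genes listed in Ctrl, 7 were higher in GE. Rgs20, whose product acts on Gz and Gi alpha subunits, lies at chr1:4909576-5070285 on the minus strand. It had 116, 113 and 127 in Ctrl-GE and 5.01, 20.7 and 21.5 in E-OEX-GE, and 4.56 or less in every luminal library. Rgs20 fell by 3.39 in E-OEX-GE (log2, SE 0.47, limma adjusted p = 0.000929, 10-fold lower), with any library left out and under every other scaling, filter and tool tried. Its exons overlap Atp6v1h (3.0% of their length) and Gm17101 (2.95%) on the other strand.

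None of the other 4 Rgs genes tested between E-OEX-GE and Ctrl-GE was called. Rgs4, a regulator known from smooth muscle and neurons, had 40.9, 59.7 and 98.6 in Ctrl-GE and 98.1, 195 and 230 in E-OEX-GE, with 2 reads in Ctrl-LE and none in E-OEX-LE. By replicate the smooth muscle sum was 17508, 15920 and 14173 in E-OEX-GE (6 listed), the reverse of the Rgs4 order. In Ctrl-GE it was 2734, 4850 and 4878 (5 listed), in the Rgs4 order. The pericyte sum was 2660, 5840 and 7847 in E-OEX-GE and 2732, 3241 and 4025 in Ctrl-GE, in the Rgs4 order in each. A link of Rgs4 to either cell type was not tested. Rgs2, which acts on Gq, had 840, 1393 and 659 in Ctrl-GE and 1120, 2050 and 1605 in E-OEX-GE. Per kilobase it led the Rgs members in both (266 and 439), with Rgs5 left out. Rgs16 was listed in E-OEX, with 447, 940 and 1460 in GE and 231, 7.27 and 144 in LE. Rgs7bp reached 90.9, Rgs22, not listed in Ctrl, 29.0 and Rgs17 13.8 in GE, and their highest luminal value was 4.59.

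In U-OEx-LE 2 Rgs genes rose and 1 anchor gene fell. Rgs1, abundant in lymphocytes, had 8.29, 19.5 and 21.2 in Ctrl-LE and 107, 142 and 198 in U-OEx-LE, and rose 8.92-fold (limma adjusted p = 0.00181). Rgs19 had 95.3, 172 and 82.7 in Ctrl-LE and 489, 399 and 563 in U-OEx-LE, and rose 3.99-fold (limma adjusted p = 0.00288). Both held with any library left out. The leukocyte sums in the same libraries were 4753, 2533 and 7416 over 8 markers, where only 4 were listed in Ctrl. A link to Rgs1 or Rgs19 was not tested. Rgs9bp had 20.7, 83.0 and 42.5 in Ctrl-LE and 8.27, 16 and 10.6 in U-OEx-LE and fell 4.30-fold (limma adjusted p = 0.045), held without Ctrl-LE replicate 1 (0.00989) and lost with any of the other 5 left out (0.0628 to 0.135) and at a pseudocount of 0.1 (0.0540).

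The enzymes and adaptors around these receptors were read from a list of further genes of the pathway. Between E-OEX-GE and Ctrl-GE 7 of 16 tested were called, where 23.8% of all genes were: 6 were lower (12.8% of all genes) and 1 higher, Sphk1, which makes S1P (log2 1.30, lost without Ctrl-GE replicate 1 and in 1 fit over all 5 groups, and chosen after its value was seen). Pde1c, a calmodulin-dependent phosphodiesterase, had 162, 173 and 168 in Ctrl-GE and 11.0, 1.15 and 4.68 in E-OEX-GE and fell by 5.2 (log2, SE 0.54, limma adjusted p = 0.000161). Between E-OEX-LE and Ctrl-LE 1 of 16 was called, where 8.71% of all genes were: Pde7a, which breaks down cyclic AMP, fell by 1.92 (limma adjusted p = 0.0151), lost without Ctrl-LE replicate 3 or E-OEX-LE replicate 1 or 2, and was named after its value was seen. Its values were 7245, 7951 and 8445 in Ctrl-LE, 2209, 1652 and 3374 in E-OEX-LE and 1484, 1342 and 1472 in U-OEx-LE.

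Between U-OEx-LE and Ctrl-LE 14 of 26 of these pathway genes were called, 9 higher and 5 lower, a share (53.8%) near the 54.5% of all genes called. Pde4b, a phosphodiesterase specific for cyclic AMP, rose from 6.22, 47.1 and 20.1 to 1179, 567 and 965 (log2 5.45, limma adjusted p = 0.000617). Grk3, a kinase that desensitises receptors, rose from 228, 44.0 and 55.9 to 2470, 2564 and 3496 (log2 5.03, limma adjusted p = 0.000147). The cyclic AMP-dependent kinase subunit Prkar2b (4.73), the phosphodiesterases Pde1b (4.26) and Pde7b (2.90), the nucleotide-hydrolysing Entpd1 (3.45) and the arrestin Arrb1 (2.43) also rose on the log2 scale. Plpp3, which removes the phosphate of LPA and S1P, fell from 4085, 1911 and 2602 to 35.8, 64.0 and 45.1 (log2 -5.88, limma adjusted p = 1.75e-05). The kinase inhibitor Pkib (-3.67, lost without Ctrl-LE replicate 3) and Pde7a (-2.50) fell, and Maob, an amine oxidase, had 3 reads in U-OEx-LE and was 43.1-fold lower (95% counting interval 14.4 to 212). Between U-OEx-LE and E-OEX-LE none of the 22 tested was called by limma or edgeR, where limma called 12.5% of all genes, while 4 were by DESeq2 and 4 had an unadjusted limma p under 0.05.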

How the data were processed

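Luminal and glandular epithelium were sampled and total RNA was sequenced; the labels' protocols name NEBNext Ultra as the library kit. The submitters' processing notes name the builds GRCm38 and mm10; the aligner, the counter and its strand setting are not given in the sources used here. The authors' deposited values are a signal per gene, in reads divided by 1 factor per library: 100% of values in each library fell within 0.01 of a whole number of reads once that factor was found. The Ctrl and E-OEX tables were deposited separately and list different genes, so tests cover genes listed in all libraries compared.

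Recovered reads were divided by 1 TMM factor per library (edgeR 4.0.16), computed over the 2819 genes listed in all 15 libraries. Log2 of value plus 1 was tested with limma 3.58.1 (trend, R 4.3.3) on genes with a mean of at least 1, including only the groups compared, with Benjamini-Hochberg adjustment over all genes tested and a threshold of 0.05. The steps were tested on simulated data with 200 changed genes. Folds against a group with no read use 3 reads over the group, and groups with 1 to 3 reads have exact 95% intervals that cover counting error only. Alternatives were other scalings, pseudocounts of 0.1, filters, edgeR, DESeq2 1.42.0, a fit over all groups, a replicate block and leaving out each library. Gene coordinates are from GENCODE M21, matched by Ensembl ID.

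Named genes were Htr1b, Gng12 and Tshr, every member past the threshold in a comparison (1 is counted with the others but not reported here), and in each role the members with the largest GE to LE difference and the highest level per length; further pathway genes and markers were named past the threshold with an absolute log2 change of at least 2. The members and lists were chosen with earlier results of these data known.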

Additional observations from a re-analysis of the deposited data

Results flagged for a closer look

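The difference between glandular and luminal epithelium differed between E-OEX and Ctrl, by the limma interaction test adjusted over all genes, for Tshr, Htr1b and Gng12 among the members and for Pde3a among the further pathway genes. The interaction was -6.22 (log2) for Tshr, -4.40 for Htr1b and -3.31 for Gng12, so the excess in glandular epithelium was smaller in E-OEX.

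Pde3a, a phosphodiesterase of cyclic AMP, went the other way at 2.79 (SE 0.67, limma adjusted p = 0.0206). It had 60.1, 62.5 and 51.4 in Ctrl-LE, 150, 220 and 179 in Ctrl-GE, 16.4, 12.7 and 6.48 in E-OEX-LE, and 228, 335 and 372 in E-OEX-GE. The Pde3a call was lost without Ctrl-GE replicate 1 or 3 or E-OEX-GE replicate 2 or 3. Among the glandular markers 4 of the 5 tested, Cxcl15, Foxa2, Lif and Ttr, had a negative interaction in the same libraries, with a median of -4.36 over the 5. The smooth muscle markers Acta2 and Cnn1 (2 of 5 tested, median 3.28) and the epithelial Krt19 (1 of 3) had a positive one, as Pde3a did, where 9.31% of all genes were called. No luminal, stromal, endothelial, pericyte or leukocyte marker was called, with medians of 2.86, 1.51, 2.41, 2.52 and 0.46 over 3, 6, 6, 5 and 1 tested. The part of other cells in these results was not tested.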

How the results depend on the processing

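No member called in a comparison changed direction in it under any alternative run, and the Tshr and Gng12 interactions stayed past the threshold in each. Of the members tested, 4 of 27 in E-OEX-LE, 10 of 33 in E-OEX-GE and 6 of 42 in U-OEx-LE against Ctrl, 6 of 36 between U-OEx-LE and E-OEX-LE and 7 of 33 in the interaction changed sign with a library left out, none of them called there. The count of genes called between E-OEX-LE and Ctrl-LE, 231 as reported, was 94 with no filter on low values, 453 by DESeq2 and 631 in 1 fit over all 5 groups; its 4 members became 1, 7 and 9, and 2 by edgeR. In 1 fit over all 5 groups the E-OEX-GE against Ctrl-GE count moved from 675 to 293 (members from 10 to 2), U-OEx-LE against Ctrl-LE from 3284 of 6028 tested to 1287 of 2706 (members from 26 of 42 to 17 of 27), since that fit takes only genes listed in all 15 libraries, the members between U-OEx-LE and E-OEX-LE from 7 of 36 to 11 of 28, and those of the interaction from 3 to 5. Between U-OEx-LE and E-OEX-LE, 543 genes became 282 with no filter, 355 by edgeR and 938 by DESeq2, and the 7 members 2 with no filter, 3 at a pseudocount of 0.1 and 11 by DESeq2. The interaction's 273 became 501 by DESeq2, and its 3 members 9. Apart from the fewer genes tested, the cause of these moves was not tested. Leaving out 1 library gave, in the order E-OEX-LE, E-OEX-GE and U-OEx-LE against Ctrl, U-OEx-LE against E-OEX-LE and the interaction, 40 to 264, 364 to 740, 2631 to 3411, 55 to 935 and 143 to 432 genes, and 0 to 3, 5 to 13, 21 to 25, 0 to 13 and 2 to 6 members. The share of calls that were higher was 47.6% against 58.6% on the deposited scale for E-OEX-LE, 46.1% against 71.6% for E-OEX-GE, 44.0% against 54.3% for the interaction (66.9% by DESeq2), and 49.5% against 36.1% by edgeR between U-OEx-LE and E-OEX-LE. With scaling over each comparison's own genes, 8 members were called in E-OEX-GE, 2 of them higher, and 9 between U-OEx-LE and E-OEX-LE, 4 of them higher. Same-numbered libraries correlated at -0.254 to 0.199 after removing group means, so the numbers were not taken to pair them; with a replicate block the counts were 152, 733, 3078, 430 and 256, with 2, 11, 25, 8 and 3 members.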
